A study of Mus musculus with 4 samples.

Results

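RNA sequencing of primary mouse macrophages was examined here for 43 genes of the lysosome: the hydrolases inside it, the proteins of its membrane, the pump that acidifies it and the transcription factors TFEB and TFE3. The genes were chosen by name and function, with earlier results of these data known, and all 43 were found among the 34745 genes of the table. By role they were 11 glycosidases, 5 sulfatases, 4 lipid hydrolases, 3 activator and lipid transfer proteins, 3 genes of peptidases and a thioesterase, 3 phosphatase and nuclease genes, 6 membrane proteins, 5 subunits of the V-ATPase, the 2 transcription factors and progranulin (Grn). Libraries labelled KO came from G3bp1mac-/- mice, in which a floxed G3bp1 gene was crossed to Cre recombinase driven by the Lyz2 promoter, which is active in monocytes, macrophages and granulocytes. Those labelled WT came from G3bp1f/f mice, so the floxed gene was present in both genotypes. G3BP1 is the RNA-binding protein that scaffolds stress granules. Each genotype had 2 libraries, numbered 1 and 2, and the labels gave no treatment, age or animal, so the spread given below is that between libraries and may be technical. Library totals ranged from 16724241 to 19747909 gene counts, and the filter on low counts kept 12418 genes. All 43 lysosomal genes passed it, the lowest count of any of them in any library being 133.

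The lysosome is an acidic organelle in which material taken up by phagocytosis, endocytosis and autophagy is broken down. Its enzymes are made in the endoplasmic reticulum, tagged with mannose 6-phosphate and carried to the organelle, where the V-ATPase pumps in the protons that keep them active. Macrophages, which digest engulfed cells, are rich in lysosomes. TFEB and TFE3 are related factors that are held in the cytoplasm when nutrients are plentiful and otherwise switch on lysosomal genes, by binding an E-box with the core letters CACGTG, known as the CLEAR element.

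Promoters of these genes are shown here because the CLEAR element is the motif bound by TFEB and TFE3, which are members of the group. Promoter windows from 250 bases before to 50 bases after the annotated start were given by RefSeq (GRCm38.p6) for 38 of the 43 genes. The letters CACGTG, which read the same on both strands, were in windows of 12 of these 38 genes (31.6%), against 2187 of all 27025 genes with a window (8.09%). The longer form TCACGTGA, also a palindrome and containing the shorter one, was in 5 of the 38 (13.2%), against 304 of all genes (1.12%). The 5 genes were Atp6v0d1 and Atp6v1a of the V-ATPase, the membrane proteins Cln3 and Mcoln1, and Gla, alpha-galactosidase A. The 80 bases before the start of Lamp1, which encodes an abundant glycoprotein of the lysosomal membrane, held the shorter motif 4 times. That stretch is chr8:13159081-13159160 on the plus strand. The other stretches are 30 bases around the longer motif, at chr8:3500462-3500491 on the plus strand for Mcoln1 and, on the minus strand, at chrX:134601182-134601211 for Gla, chr7:126583340-126583369 for Cln3, chr8:105566050-105566079 for Atp6v0d1 and chr16:44139373-44139402 for Atp6v1a. Starts are those of RefSeq. By the gene positions deposited with the counts, the stretches of Mcoln1, Cln3 and Atp6v1a lie inside the gene and that of Lamp1 spans its start. All stretches are written 5′ to 3′ on the strand of the gene, with the motif in capitals.
Lamp1: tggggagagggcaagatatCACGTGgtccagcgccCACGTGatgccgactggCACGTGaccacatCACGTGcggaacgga
Mcoln1: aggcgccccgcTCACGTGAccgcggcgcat
Gla: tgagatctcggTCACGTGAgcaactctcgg
Cln3: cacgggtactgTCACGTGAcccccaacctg
Atp6v0d1: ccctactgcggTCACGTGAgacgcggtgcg
Atp6v1a: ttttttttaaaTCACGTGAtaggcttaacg

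**Figure D1:**
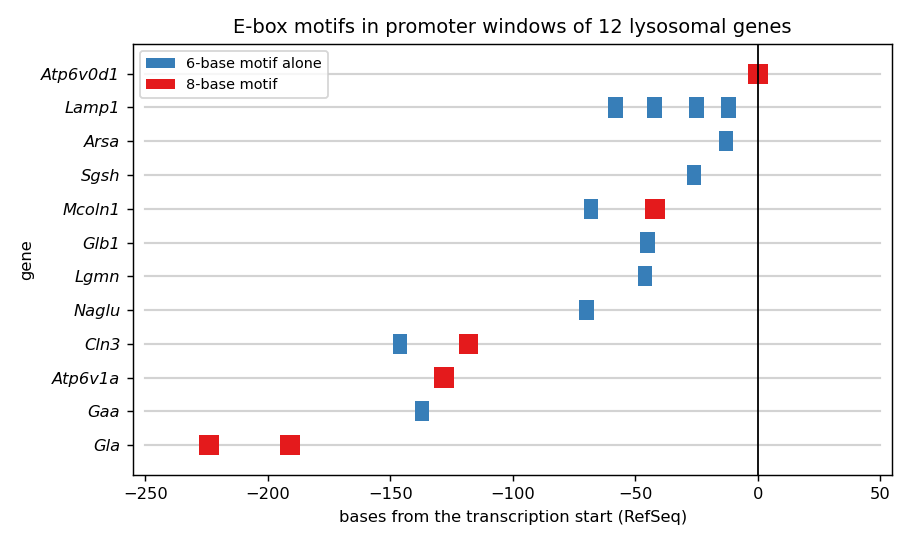
Each grey line is the promoter window of a lysosomal gene that holds the motif, and the horizontal axis gives bases from the annotated transcription start. Blue boxes are the shorter motif and red boxes the longer one. The 4 blue boxes of Lamp1 begin between 61 and 15 bases before the start, and the red box of Atp6v0d1 begins 4 bases before it.

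The motif lay close to the start in several of these genes and farther away in others. In Gla the longer form occurred at 228 and at 195 bases before the start, and in Cln3 and Atp6v1a at 122 and 132 bases. A match of letters is not a measured binding site, and binding was not measured in these samples.

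Levels of the group were then compared between genes, on the FPKM scale, which divides counts by gene length and library total. Lysosomal transcripts were among the abundant ones of these cells: the median of the 43 genes was 58.7 FPKM, against 3.48 FPKM over all tested genes. Of the 43, 41 were above the median tested gene and 25 were in the top 10%. Psap led them. Prosaposin, its product, is cut into the saposins, small proteins that lift sphingolipids out of membranes for the hydrolases. Psap had 4235 and 3991 FPKM in WT and 4785 and 3923 FPKM in KO, so the genotypes overlapped. Lamp1 was the next at 1528 and 1621 FPKM in WT and 1930 and 1724 FPKM in KO. These 2 stood apart in the order: the lowest library of Psap was above the highest of Lamp1, and the lowest of Lamp1 was above the highest of Hexa.

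Hexa, the alpha subunit of the hexosaminidase that degrades GM2 ganglioside, had a mean of 998 FPKM. It was followed by Npc2, a carrier of cholesterol, at 752 FPKM, by Lgmn, the asparagine-specific protease legumain, at 743 FPKM, and by Lipa, the acid lipase that releases cholesterol from its esters, at 657 FPKM. Those 3 could not be ordered, because their libraries overlapped. Of the 42 pairs of neighbours in the order, only 6 had libraries that did not overlap. At the low end stood the transcription factors, with Tfeb at 5.20 and Tfe3 at 2.97 FPKM, and the sulfatases Arsa at 4.43 and Sgsh at 1.18 FPKM. Only Tfe3 and Sgsh were below the median tested gene.

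The order depends on the gene length used. The length implied by the deposited counts and FPKM was between 0.934 and 6.09 times that of the longest annotated coding transcript, with a median of 1.93 times. Per kilobase of that transcript, 42 of the 43 genes were above the median tested gene and 27 were in the top 10%, and Psap and Lamp1 remained the highest and Sgsh the lowest. Lgmn moved from the 5th place to the 3rd. On that scale Tfeb had 20.4 and Tfe3 18.04 CPM per kilobase, and Tfe3 was then also above the median tested gene, which had 6.57 CPM per kilobase.

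**Figure D2:**
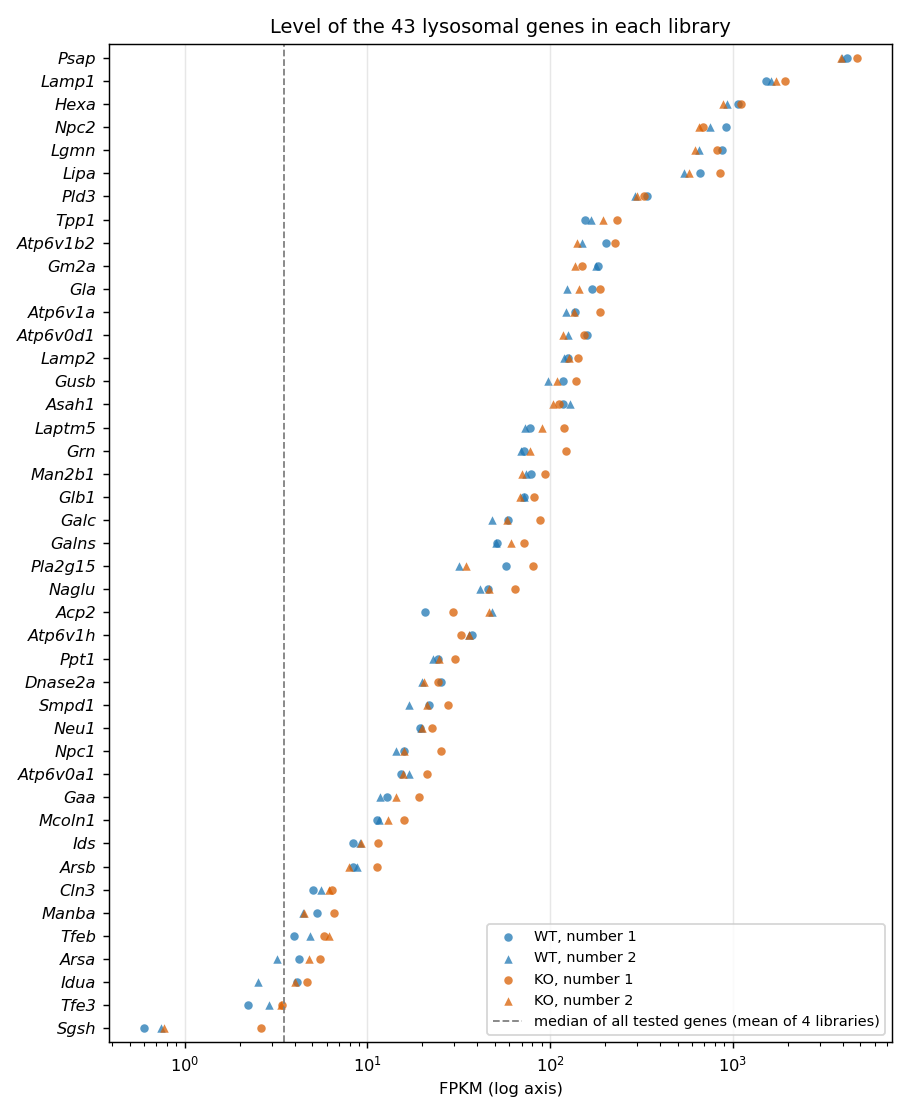
FPKM of each of the 43 lysosomal genes in each library, on a log axis, with genes ordered by their mean. Circles are libraries numbered 1 and triangles those numbered 2, blue is WT and orange is KO, and the dashed line is the median of all tested genes at 3.48 FPKM. Psap is at the top near 4233 FPKM and Sgsh at the bottom, with its KO library numbered 1 apart from the other libraries. FPKM carry no TMM scaling, and KO replicate 1 was the highest library for 33 of the genes.

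Together the 43 genes took between 3.97% and 4.88% of the gene counts of a library, and Psap alone between 38.9% and 40.1% of that share. Summed on the normalised scale (CPM, counts scaled to a common TMM-adjusted library total), they had 45547 and 42154 CPM in WT and 43792 and 39789 CPM in KO. The sums of the genotypes overlapped, and in each genotype the library numbered 1 was the higher.

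Before genotypes were compared, the targeted gene and the cell type were examined. G3bp1 had 104 and 180 CPM in WT and 70.1 and 117 CPM in KO, which gave a log2 fold change of -0.61 (SE 0.40, adjusted p 0.904 in edgeR). Both genotypes were higher in the library numbered 2, by 0.79 in WT and 0.73 in KO on the log2 scale, and the genotypes overlapped. At the same number, KO was below WT by a log2 ratio of -0.57 for number 1 and -0.63 for number 2. Counts of the whole gene did not separate the genotypes past the test, so in these libraries each direction given for KO rests on the labels. Macrophage markers were abundant in each library, with summed levels of 10 markers from 21399 to 26710 CPM, most of it Lyz2, and from 4530 to 6064 CPM for the other 9. The 10 stromal markers summed to 103 and 115 CPM in WT and 460 and 423 CPM in KO. Of the 9 stromal markers that were tested, 8 were above both WT libraries in both KO libraries, against 20.0% of all tested genes. Sums were 44.2 to 110 CPM for mast cell and basophil markers and 23.6 to 47.6 CPM for lymphocyte markers, both lower in each KO library than in each WT library, also on library totals. Neutrophil markers summed to 76.4 and 102 CPM in the WT libraries against 67.5 and 73.9 CPM in the KO libraries, and on library totals the genotypes overlapped. Most of that sum was Csf3r, whose genotypes overlapped as well. In contrast, S100a9 was at 91 and 82 counts in the WT libraries but at 2 and 1 in the KO libraries. Mpo and Elane had 0 in all libraries. Dendritic cell markers summed to 433 to 612 CPM. The part of these other cell types in the results below was not tested. In bulk RNA, fewer cells of a type and less RNA per cell cannot be told apart.

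The comparison of KO with WT asks whether loss of G3BP1 went with a different level of lysosomal transcripts. None of the 43 genes passed the test. Differences of the group were small: the median log2 fold change was 0.06, with 27 genes above 0 and 16 below, and the middle 50% of the genes lay between -0.09 and 0.23. Over all tested genes the median was 0.04 and the middle 50% lay between -0.23 and 0.26. Of all tested genes 54.6% were above 0, against 62.8% of the group. The count of the group above 0 depends on the scaling. It was 34 on library totals without TMM, 23 with DESeq2 size factors and 16 once a trend with gene length was taken out of each library. The median of all tested genes moved too, to 0.0026 with DESeq2 size factors and -0.051 with the length trend taken out. The median of the group was below 0 with the length trend taken out (-0.035), without WT replicate 2 (-0.0096) and without KO replicate 1 (-0.019), so its sign is not settled. Under those 3 scalings the medians of the glycosidases, the peptidases with the thioesterase and the V-ATPase subunits changed sign in at least 1, and the medians of the other roles kept theirs. The median SE was 0.23 in the group and 0.31 over all tested genes. The median size of the difference between replicate numbers was 0.18 and 0.29, so the group varied less there as well. With TMM, only Sgsh differed by more than 0.5 on the log2 scale (2.33% of the group, against 22.2% of all tested genes). Gm2a passed that size too, at -0.53 with DESeq2 size factors, -0.51 without the filter on low counts and -0.57 with the length trend taken out, and Npc2 at -0.504 with DESeq2 size factors.

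In edgeR's quasi-likelihood test, 0 of the 43 genes were called at an adjusted p under 0.05 and a fold change over 2, as were 0 of all 12418 genes (0%). Adjusted p ranged from 0.790 to 0.996. At an unadjusted p under 0.05 there were also 0 of the 43, where 4.64% of all genes were higher and 1.99% lower in KO. The DESeq2 Wald test called 181 of all genes (1.46%) and the edgeR exact test 174 (1.40%), and 0 of the 43 were among either. The 95% confidence intervals reached 0.59 to either side of the fitted log2 fold change at the median, and between 0.38 and 1.40 over the genes. For 39 of the 43 the interval stayed within a 2-fold change, the others being Sgsh, Pla2g15, Gm2a and Acp2.

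**Figure D3:**
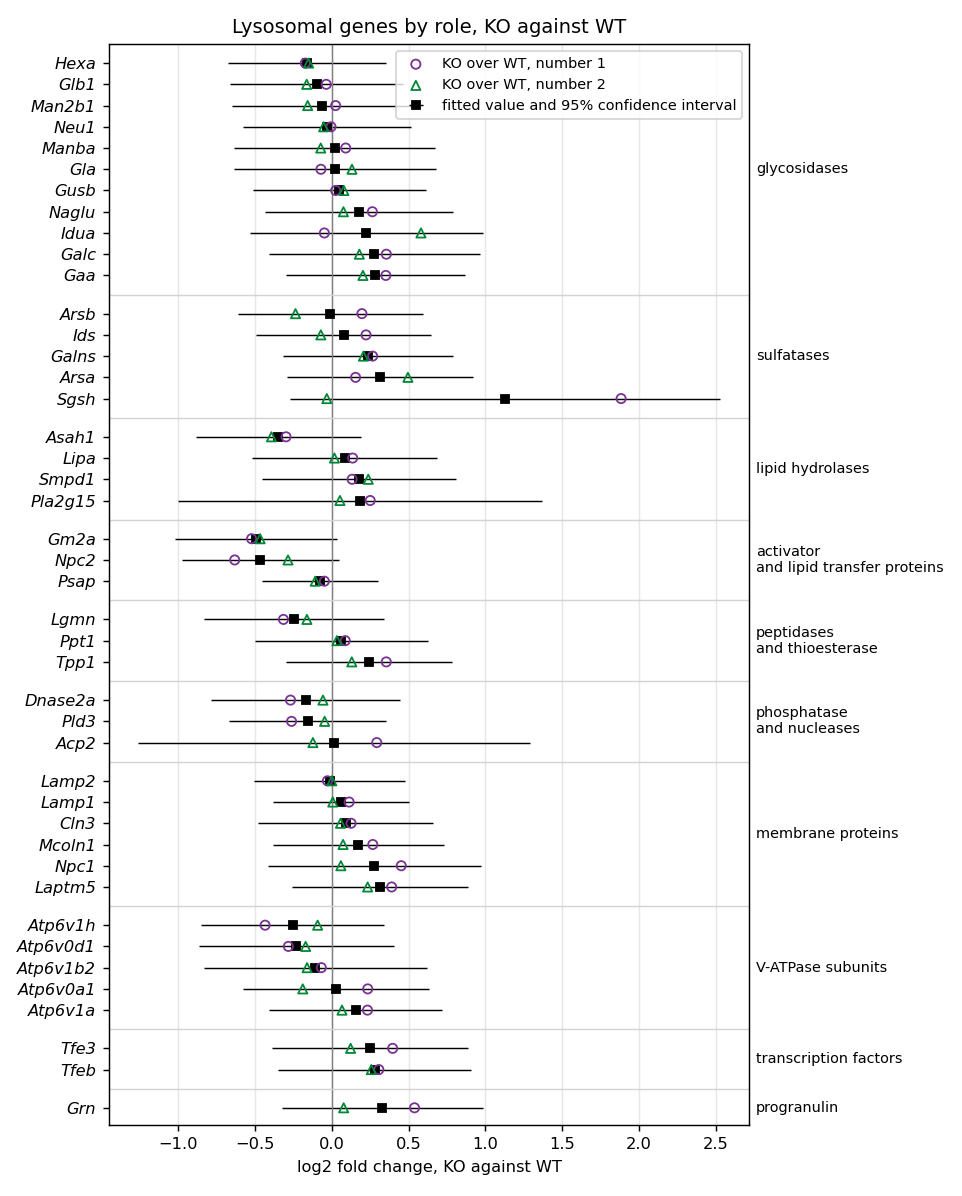
Fitted log2 fold change of KO against WT for each of the 43 lysosomal genes, grouped by role, with its 95% confidence interval (black), and the log2 ratio of KO to WT within replicate number 1 (purple circles) and number 2 (green triangles). All 43 intervals hold 0. Sgsh is the widest, with a ratio of 1.88 within number 1 and -0.03 within number 2.

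Counts of non-overlapping libraries were near those of all genes. Both KO libraries were above both WT libraries for 8 of the 43 (18.6%), against 20.0% of all tested genes, and below both for 7 (16.3%), against 16.9%. Glb1, Neu1, Asah1, Gm2a, Npc2, Pld3 and Atp6v1h were the 7, and Gaa, Galns, Arsa, Tpp1, Lamp1, Mcoln1, Laptm5 and Grn the 8. On library totals each log2 difference is 0.15 higher, and the counts became 17 above and 4 below, where all genes had 31.6% above and 9.39% below. The median log2 ratio of KO over WT was 0.13 for the libraries numbered 1 and 0.01 for those numbered 2. Over all tested genes these medians were 0.11 and -0.001. The sign was the same within both numbers for 33 of the 43 genes (76.7%), against 65.0% of all tested genes.

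The activator and lipid transfer proteins had the lowest median of the roles, a log2 fold change of -0.46. All 3 were below 0 (2 of 3 on library totals), and Gm2a and Npc2 were the lowest of the 43 genes. Gm2a encodes the activator that presents GM2 ganglioside to hexosaminidase A. Its level was 792 and 787 CPM in WT and 552 and 570 CPM in KO. The genotypes did not overlap and the libraries of each were close. The fitted log2 fold change was -0.49 with an SE of 0.21, the adjusted p was 0.790 in edgeR, and the 95% confidence interval ran from -1.02 to 0.03. Gm2a (ENSMUSG00000000594) lies on chromosome 11 of GRCm38 from position 55098115 to 55113029 on the plus strand, 356656 bases from G3bp1. Chromosome 11 holds 6 of the 43 genes.

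Npc2 hands cholesterol to NPC1 for export from the lysosome. It had 3134 and 2598 CPM in WT and 2023 and 2133 CPM in KO, also without overlap. The log2 fold change was -0.46 (SE 0.20, adjusted p 0.810). Psap, by contrast, had 17710 and 16913 CPM in WT and 17130 and 15699 CPM in KO, with a log2 fold change of -0.08 (SE 0.15) and overlapping genotypes.

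Among the 4 lipid hydrolases the median was 0.13, and Asah1 was the 1 below 0. Asah1 encodes acid ceramidase, which splits ceramide into sphingosine and a fatty acid. It had 691 and 766 CPM in WT and 562 and 584 CPM in KO, with no overlap. The log2 fold change was -0.35 (SE 0.21, adjusted p 0.902). Pla2g15, a lysosomal phospholipase, had 164 and 90.7 CPM in WT and 195 and 94.1 CPM in KO, so the genotypes overlapped and the libraries of a genotype were far apart.

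Sulfatases remove sulfate groups from glycosaminoglycans and sulfolipids. Their median log2 fold change was 0.24, with 4 of 5 above 0. Sgsh, the sulfamidase of heparan sulfate breakdown (ENSMUSG00000005043, chromosome 11, positions 119343425 to 119355536, minus strand), had 8.20 and 10.2 CPM in WT and 30.3 and 10.0 CPM in KO. KO replicate 1 alone was high, with 565 counts where the other libraries had between 133 and 197. The pooled log2 fold change of 1.13 (SE 0.55, adjusted p 0.846) rested on that library, and without it the value was 0.12. Card14, on the opposite strand and overlapping Sgsh, had 1 to 6 counts in a library. Arsa, arylsulfatase A, which acts on sulfatide, had 30.02 and 22.9 CPM in WT and 33.4 and 32.3 CPM in KO. Its log2 fold change was 0.31 (SE 0.24, adjusted p 0.933), and leaving out WT replicate 1 gave 0.52, leaving out WT replicate 2 0.10.

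The 11 glycosidases, which take sugars from glycoproteins, glycolipids and glycogen, lay at a median log2 fold change of 0.02 and ranged from -0.16 to 0.28. Gaa, the acid alpha-glucosidase that digests glycogen, was at the upper end. It had 81.9 and 76.3 CPM in WT and 104 and 87.8 CPM in KO, for a log2 fold change of 0.28 (SE 0.23, adjusted p 0.941), which was 0.15 without KO replicate 1. Hexa was at the lower end. WT libraries had 2097 and 1835 CPM of it, those of KO 1861 and 1653 CPM, and the genotypes overlapped. Idua, the iduronidase of heparan and dermatan sulfate breakdown, had 36.1 and 22.3 CPM in WT and 34.9 and 33.4 CPM in KO. WT replicate 2 alone was low there, and the log2 fold change of 0.23 became -0.11 without it.

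For the membrane proteins the median was 0.13, and 5 of 6 were above 0 (3 of 6 with the length trend taken out). Lamp1 (ENSMUSG00000031447) had 3612 and 3882 CPM in WT and 3907 and 3900 CPM in KO. Its log2 fold change of 0.06 had an interval from -0.38 to 0.50. Lamp2, the related membrane protein with a part in chaperone-mediated autophagy, had 1304 and 1269 CPM in WT and 1278 and 1269 CPM in KO. The 4 libraries of Lamp2 were thus nearly level, and the log2 fold change of -0.01 had an interval from -0.51 to 0.48. Laptm5, a membrane protein of blood cell lysosomes, had 452 and 426 CPM in WT and 592 and 501 CPM in KO. Its log2 fold change was 0.32 (SE 0.23, adjusted p 0.927), and 0.19 without KO replicate 1.

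Grn encodes progranulin, a secreted protein that is also cut into granulins in the lysosome. It had 545 and 534 CPM in WT and 792 and 563 CPM in KO, for a log2 fold change of 0.33 (SE 0.26, adjusted p 0.938). As for Sgsh, KO replicate 1 was the high library, and the value was 0.062 without it and 0.55 without KO replicate 2. Within replicate number 2 the log2 ratio was 0.08, against 0.54 within number 1.

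Log2 fold changes of the V-ATPase subunits lay between -0.25 and 0.16, with a median of -0.11. Atp6v1b2, the B subunit of the catalytic sector in most cells, had 1398 and 1037 CPM in WT and 1334 and 928 CPM in KO. Both peptidases and the thioesterase together had a median of 0.06, with Lgmn at 2939 and 2240 CPM in WT and 2363 and 2002 CPM in KO. Its log2 fold change was -0.25 (SE 0.23, adjusted p 0.957), and leaving out WT replicate 1 gave -0.033, leaving out WT replicate 2 -0.46. For the phosphatase and nucleases the median was -0.16.

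Values of both transcription factors were above 0. Tfeb had 38.5 and 47.8 CPM in WT and 47.7 and 57.1 CPM in KO, for a log2 fold change of 0.28 (SE 0.25, adjusted p 0.952), which was 0.14 without WT replicate 1 and also without KO replicate 2. Tfe3 had 48.1 and 63.7 CPM in WT and 63.4 and 69.3 CPM in KO, for a log2 fold change of 0.25 (SE 0.25, adjusted p 0.959), which was 0.063 without WT replicate 1 and -0.04 with the length trend taken out. With TMM the genotypes overlapped in both genes. On library totals both genes had both KO libraries above both WT libraries, as had 31.6% of all tested genes. The 12 genes with CACGTG in their promoter window had 9 genes above 0 and a median log2 fold change of 0.12, and the 26 with a window but no match had 0.04, with 16 above 0. These medians are a description, and no difference between them was tested.

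Replicate number went with larger differences than genotype for 26 of the 43 genes (60.5%), against 54.6% of all tested genes. Most lysosomal genes were lower in the libraries numbered 2: the median log2 difference of number 2 from number 1 was -0.16, with 33 genes lower and 10 higher, where the median of all tested genes was -0.01. Both libraries numbered 2 were below both numbered 1 for 20 of the 43 (46.5%), against 23.2% of all tested genes, and above both for 4 (9.30%), against 25.2%. What a number marks is not given in the labels. The 4 above were Acp2, Cln3, Tfeb and Tfe3, so that both transcription factors were in the direction opposite to most of the enzymes. On library totals 18 of the 43 (41.9%) were below, against 27.5% of all tested genes, and 1 (2.33%) was above, against 17.3%, so that neither transcription factor was among those above. Among the glycosidases 8 of 11 were in the other set, with both libraries numbered 2 below. Macrophage markers also differed between the numbers, in both directions. In both genotypes 5 of the 10 were higher at number 2, among them Cd14 at 125 CPM in WT replicate 1 and 683 CPM in WT replicate 2. Another 3 (Itgam, Fcgr1 and Mertk) were lower at number 2 in both genotypes, with Fcgr1 at 55.7 CPM in WT replicate 1 and 21.2 CPM in WT replicate 2. The part of these markers in the differences of the lysosomal genes was not tested.

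**Figure D4:**
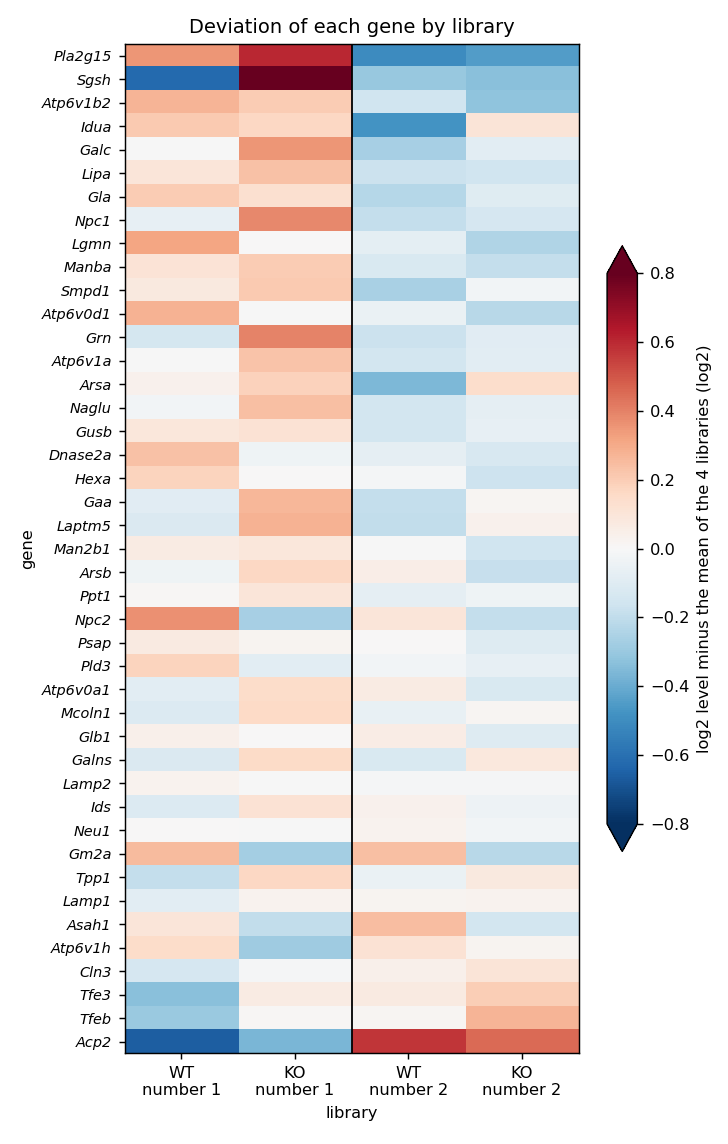
Log2 level of each lysosomal gene in each library minus its mean over the 4 libraries, with the libraries numbered 1 on the left and those numbered 2 on the right. Red is above and blue below the mean, and colours end at the limits of the scale, which Sgsh exceeds. Genes are ordered by the difference between the numbers, from Pla2g15 at the top, at -0.95, to Acp2 at the bottom, at 1.03.

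Acp2, the lysosomal acid phosphatase (ENSMUSG00000002103, chromosome 2, positions 91202885 to 91214098, plus strand), differed most. It had 163 CPM in WT replicate 1 and 385 CPM in WT replicate 2, and 200 and 353 CPM in the KO libraries of the same numbers. The difference of number 2 from number 1 was thus 1.23 in WT and 0.82 in KO on the log2 scale. Ddb2, which overlaps Acp2 on the opposite strand, had 34 to 72 counts in a library, where Acp2 had 2652 to 6955. The mean log2 difference between genotypes was within that spread, at 0.01 (SE 0.50).

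Pla2g15 went the other way, by -0.85 in WT and -1.05 in KO. Atp6v1b2 differed by -0.43 and -0.52. Both genes kept the direction in both genotypes, whereas Sgsh, with a mean difference of -0.64, was higher by 0.32 in WT and lower by 1.60 in KO. Idua, at -0.38 in the mean, differed by -0.69 in WT and by -0.06 in KO. Gm2a was the counterpart, with a difference between the numbers of 0.02 on the log2 scale, the spread of its libraries being small in both genotypes.

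**Figure D5:**
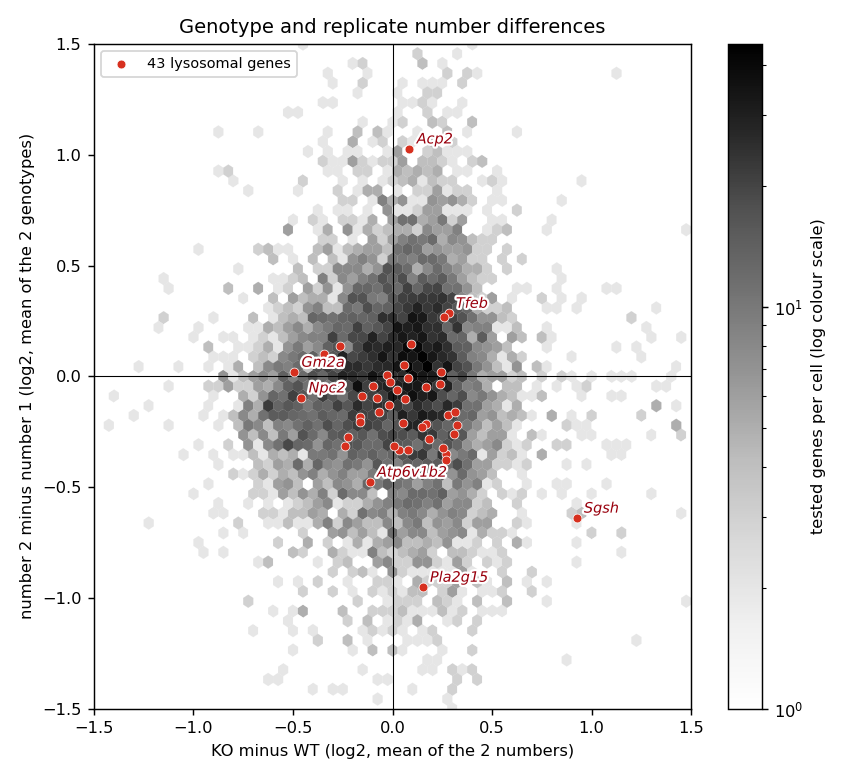
Each red point is a lysosomal gene, placed by its log2 difference between KO and WT (horizontal) and between replicate numbers 2 and 1 (vertical). Grey cells count all tested genes on a log colour scale, and 1064 of 12418 genes lie outside the axes. Acp2 and Pla2g15 stand far from 0 on the vertical axis, Gm2a and Npc2 on the left of the horizontal axis, and Sgsh away from 0 on both.

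Other genes of the pathway were taken from 7 lists of 126 genes, of which 124 were tested. Lamp3 and Lamp5 were too low. In edgeR's quasi-likelihood test 0 of the 124 were called. In that test 0 of all 12418 genes were called. At an unadjusted p under 0.05 there was 1 of the 124 (0.806%), against 6.63% of all tested genes. This was Vamp8, a SNARE protein of the fusion between late endosomes or autophagosomes and lysosomes. It had 411 and 288 CPM in WT and 105 and 140 CPM in KO. Both KO libraries were far below both WT libraries. Its log2 fold change was -1.52 with an SE of 0.31 and a 95% confidence interval from -2.30 to -0.74. It missed the threshold in the edgeR fit with genotype alone, at an adjusted p of 0.289. The DESeq2 Wald test called it. So did edgeR with the replicate number as a block (adjusted p 2.3e-08), though the labels do not say that a number marks a batch.

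Over the 124 genes the median log2 fold change was -0.04, with 58 above 0 and 66 below, or 76 above 0 on library totals. Both KO libraries were below both WT libraries for 36 (29.0%, against 16.9% of all tested genes) and above for 13 (10.5%, against 20.0%). With DESeq2 size factors these shares were 30.6% and 6.45%, against 19.0% and 17.4% of all genes. On library totals without TMM they were 15.3% and 25.0%, against 9.39% and 31.6% of all genes. Which of the 2 directions was the more frequent thus depends on the scaling. Values differed between the lists. The 10 cathepsins, the proteases of the lysosome, were all below 0, from -0.46 to -0.02, with a median of -0.25, and 8 of them had both KO libraries below both WT libraries (80%, against 16.9% of all genes). On library totals that count was 4 (40%, against 9.39%), and 2 of the 10 were above 0. For the 13 V-ATPase subunits outside the group the median was -0.24, with 10 below 0, and 7 were below in both KO libraries, or 5 on library totals (53.8% and 38.5%, against 16.9% and 9.39% of all genes). The other lists were nearer to 0: -0.06 for 26 further hydrolases, 0.02 for 24 further membrane proteins, 0.06 for 10 genes of mannose 6-phosphate tagging and sorting, 0.07 for 20 regulators and partners of TFEB and -0.12 for 21 genes of transport from endosome to lysosome. Of the transport genes 9 had both KO libraries below both WT libraries (42.9%, against 16.9% of all genes), or 5 on library totals (23.8%, against 9.39%). On library totals only the cathepsins and the 13 V-ATPase subunits, among the 7 lists, had medians below 0, at -0.09 each. No difference between lists was tested.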

How the data were processed

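Total RNA of cultured macrophages was sequenced in 2 WT and 2 KO libraries. The authors filtered reads with Seqtk, mapped them with HISAT2 (version 2.0.4) and counted fragments per gene with StringTie (1.3.3b). They deposited whole-number counts, not normalised, with FPKM beside them; the FPKM deposited by the authors carry only library total and gene length, and were used for levels alone. Strand use in counting is not given in the sources used here, so overlapping genes may share counts. The submitters' notes name mm39, but 27686 of 34267 gene identifiers shared with GENCODE M21 had the same GRCm38 position, 31 of the 43 members included, so positions are on GRCm38. For 40 of 44 promoter windows the last 18 bases lay in a transcript of the gene.

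The analysis used edgeR 4.0.16 in R 4.3.3: filterByExpr (minimum count 10, total 15), TMM, and a two-sided quasi-likelihood test (glmQLFit, glmQLFTest) with genotype as the only term and Benjamini-Hochberg adjustment over all genes. A call needed an adjusted p under 0.05 together with a log2 fold change beyond 1 in either direction. Log2 ratios within a number had 0.5 counts added. No library was a copy of another (chi-square over its degrees of freedom 21.6 to 118 for the pairs). The code was tested on simulated data, drawn with less spread than these libraries and with no difference between replicate numbers. That check therefore does not tell how many real differences the test would find here.

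Members, gene lists and the rule for named genes were chosen with earlier results of these data known. Named were Lamp1, Lamp2, Tfeb, Tfe3, the 5 members with the highest FPKM, the 8 with the smallest p, the 5 with the largest difference between numbers, and pathway genes with an unadjusted p under 0.05. Non-overlap counts are descriptions.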

Additional observations from a re-analysis of the deposited data

How the results depend on the processing

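With 2 libraries per genotype, the 95% intervals of 39 of the 43 members reached a 1.5-fold difference in at least 1 direction, and those of 6 in both. The DESeq2 Wald test (DESeq2 1.42.0) called 181 genes (136 higher, 45 lower) and the edgeR exact test 174 (144 higher, 30 lower), where the quasi-likelihood test called 0; each called 0 members. With size factors of DESeq2, with no filter, with a gene length correction or with no minimum fold change, 0 members were called. Leaving out any of the 4 libraries leaves 1 library in a genotype, so for those fits only effect sizes are given.

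Deviations of same-numbered libraries correlated at 0.692 over all tested genes and 0.427 over the members, and the labels do not say that a number marks a batch. With the number as a replicate block, 664 genes were called (494 higher, 170 lower), with the block and the length correction 367 (266 higher, 101 lower), and with the block and no minimum fold change 974 (584 higher, 390 lower). Among members the block with no minimum fold change called 1, Sgsh, at an adjusted p of 0.0054 in edgeR and a log2 fold change of 0.94; with the length correction the adjusted p was 0.323. Among pathway genes 1, Vamp8, was called in the Wald test (adjusted p 0.0020), with the block (edgeR adjusted p 2.3e-08), and with the block and the length correction (0.0064).

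The member median of 0.06 was -0.035 with the length correction and -0.040 with the replicate block and length correction, where the median of all genes was -0.051 and -0.044; leaving out a library gave -0.019 to 0.14, the highest without KO replicate 2. On library totals without TMM, members with both KO libraries above were 17 rather than 8, those below 4 rather than 7, and those with both libraries numbered 2 above 1 rather than 4; these counts and that of pathway genes were chosen after seeing the data.

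Of the 19 named members, 12 kept their direction under all settings, library totals included. On library totals Psap turned to 0.076, Lamp2 to 0.14 and Atp6v1b2 to 0.046. Acp2 turned to -0.018 with DESeq2 size factors and in the Wald test, -0.11 with the length correction and -0.066 with block and length correction. Tfe3 turned to -0.036 and -0.040 in those last 2. Without 1 library, the values ranged from -0.47 to 0.73 for Acp2, -0.44 to 0.68 for Pla2g15, -0.39 to 0.13 for Atp6v1b2, -0.11 to 0.62 for Idua and -0.065 to 0.0094 for Lamp2. The cause of these shifts was not tested. Adjusted p of the named members ranged from 0.0054 to 1.00 over the settings.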
